A study of Mus musculus with 15 samples.

Results

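The 36 genes described here are the mouse amino acid transporter genes of solute carrier families Slc1, Slc3, Slc6, Slc7, Slc36, Slc38 and Slc43 that were measurable in liver. They were chosen by symbol from the 24411 genes in the count tables. Of 62 symbols in these families, with Slc1a2 and Slc7a11 left out, 36 had a mean of at least 0.5 CPM (a gene's counts relative to the scaled total of its library) over the 15 libraries, and all 36 passed the low-count filter that left 14098 genes for testing. By family the members number 4 of 6 symbols for Slc1, 2 of 2 for Slc3, 8 of 20 for Slc6, 8 of 15 for Slc7, 2 of 5 for Slc36, 9 of 11 for Slc38 and 3 of 3 for Slc43. On the scale used for the choice, Slc6a4 lay just inside the limit at 0.774 CPM, and Slc6a11 and Slc7a15 lay just outside at 0.475 and 0.472 CPM. The symbol rule also took in Slc7a6os, a gene on the opposite strand beside Slc7a6 that is not a transporter. It is counted with the members and does not change the reading of any family but Slc7.

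The study compared liver RNA of male mice of the FVB/NJ strain, taken from fresh frozen tissue, in 5 groups of 3 libraries. The wild-type group (WT) carried no transgene by its label. The CTNNB1_MET model carried S45Y-CTNNB1 with hMET, the NFE2L2_MET model carried G31A-NFE2L2 with hMET, the CTNNB1_NFE2L2 model carried S45Y-CTNNB1 with G31A-NFE2L2, and the CTNNB1_NFE2L2_MET model carried all 3. CTNNB1 encodes β-catenin, the effector of Wnt signalling, NFE2L2 encodes NRF2, the regulator of the antioxidant response, and MET is the receptor for hepatocyte growth factor. Mutations at these positions are known to stabilise β-catenin and NRF2. All 4 models share the strain, sex and tissue of WT, and the labels give no age, promoter, method of delivery, control vector or time of harvest. The comparisons with WT therefore cannot tell the transgenes apart from whatever else the model livers underwent. Comparing the 3-transgene model with each 2-transgene model asks what went with 1 added transgene, called here CTNNB1 added, NFE2L2 added and MET added. The models may differ in the unlabelled items too, and the added transgene cannot be told apart from such differences. These 3 comparisons share the 3-transgene libraries, and the 4 comparisons with WT share the WT libraries.

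Amino acid transporters set which amino acids a liver cell takes up, releases or exchanges. Slc1 carriers move glutamate or small neutral amino acids. Slc7 light chains such as LAT1 reach the membrane bound to an Slc3 heavy chain and exchange one amino acid for another, while the cationic carriers of Slc7 work alone. Slc38 carriers bring glutamine and alanine into hepatocytes, Slc6 carriers move glycine, taurine, creatine, betaine and γ-aminobutyric acid (GABA), Slc36 carriers work at lysosomes and the plasma membrane, and Slc43 carriers move large neutral amino acids and purine bases. In the normal liver lobule, glutamine uptake through SNAT3 (Slc38a3) feeds periportal ammonia and urea metabolism, and several of these genes are targets of ATF4, the factor that responds to amino acid shortage.

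Gene counts summed to between 14084343 and 20702618 per library, and members held 0.287 to 0.523% of them. All pairs of replicates differed by more than sampling noise. The labels do not say that the 3 libraries of a group came from separate mice, so p-values measure the spread between these libraries. All 8 hepatocyte markers were present in every group, with a summed level of 90856 to 112009 CPM in WT, 81806 to 97193 in CTNNB1_NFE2L2_MET, 36152 to 45509 in CTNNB1_NFE2L2, 165550 to 181378 in CTNNB1_MET and 156326 to 204893 in NFE2L2_MET. Gene by gene, 5 were lower and 0 higher in CTNNB1_NFE2L2_MET against WT (62.5% called, beside 49.9% of all genes). In CTNNB1_NFE2L2 7 were lower and 0 higher (87.5% beside 48.7%). In CTNNB1_MET and NFE2L2_MET 4 each were higher and 0 lower (50% beside 17.2% and 23.4%). With NFE2L2 added all 8 were lower (100% beside 33.8%). With CTNNB1 added 5 were lower and 0 higher (62.5% beside 30.7%), and with MET added 3 were higher and 0 lower (37.5% beside 25%). Their part in the results was not tested. Counts of mouse Ctnnb1 stood at 243 to 295 CPM in WT, 409 to 454 in CTNNB1_NFE2L2_MET, 352 to 388 in CTNNB1_NFE2L2, 310 to 387 in CTNNB1_MET and 316 to 355 in NFE2L2_MET. Only CTNNB1_NFE2L2_MET lay wholly above NFE2L2_MET, which lacks CTNNB1. Ranges of Nfe2l2 and of Met also overlapped between models with and without the transgene. These counts alone therefore did not tell which models carried which transgene. Reads that did not align made up a mean of 22.9% of WT, 17.2% of CTNNB1_MET, 13.7% of NFE2L2_MET, 10.7% of CTNNB1_NFE2L2 and 10.3% of CTNNB1_NFE2L2_MET reads. In these bulk samples, fewer cells of a type and less RNA per cell cannot be told apart.

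Before the results, 2 members need to be set apart. Transcripts typical of brain, such as Camk2a and Snap25, were present in 11 of the 15 libraries: 10 of them, picked after their values were seen, summed to 45.4 to 64.6 CPM there, against 1.23 to 2.79 CPM in WT replicate 2, CTNNB1_NFE2L2_MET replicate 1 and NFE2L2_MET replicates 1 and 2. The glial glutamate carrier Slc1a3 stood at 1.31 to 3.12 CPM in those 11 libraries and at 0.177 to 0.831 CPM in the other 4. Slc6a17, a neutral amino acid carrier of synaptic vesicles, stood at 1.52 to 4.07 CPM in the 11 and at 0 to 0.297 CPM in the 4. Levels of these 2 genes were split the same way, within groups as well as between them, and neither passed the test in any of the 7 comparisons. With a term for the summed brain transcripts, Slc6a17 was called with NFE2L2 added at a log2 fold change of -0.86 (adjusted p = 0.0481). Of the 120 called results of members, 112 kept their call with that term.

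Across the 5 groups, 28 of 36 members (77.8%) differed between groups in a test of any difference, against 65.5% of all genes tested. Of these 28, the highest group mean was in CTNNB1_NFE2L2_MET for 12, in WT for 7, in CTNNB1_NFE2L2 for 6, in CTNNB1_MET for 2 and in NFE2L2_MET for 1. Against WT, no Slc1 member fell in any model, whereas the Slc3, Slc6, Slc7 and Slc38 families each held members that rose and members that fell in CTNNB1_NFE2L2_MET. Against WT, 15 members rose and 9 fell in CTNNB1_NFE2L2_MET, where 49.9% of all genes tested were called (26.5% higher, 23.4% lower). In CTNNB1_NFE2L2, 15 rose and 10 fell, beside 48.7% of all genes (24.5% higher, 24.2% lower). Fewer members were called in the models that lack 1 of these 2 mutant proteins: 8 rose and 4 fell in CTNNB1_MET, beside 17.2% of all genes (11% higher, 6.22% lower), and 8 rose and 5 fell in NFE2L2_MET, beside 23.4% (13.5% higher, 9.89% lower). The median member log2 fold change was 0.18, 0.28, 0.15 and -0.06 in that order, beside medians of all genes between -0.0187 and -0.00159. The 2 smaller counts were lower without certain single libraries. Without CTNNB1_MET replicate 1, 6 members were called in that model, and without NFE2L2_MET replicate 3, 7 were called in that one. A fit on the 6 libraries of CTNNB1_MET and WT alone called 7. Shares of all genes in these reduced fits are not given here, so the drops are not read as particular to the members.

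With CTNNB1 added, 10 members rose and 8 fell, beside 30.7% of all genes (16.4% higher, 14.3% lower). With NFE2L2 added, 11 rose and 9 fell, beside 33.8% (18.4% higher, 15.4% lower). With MET added 4 rose and 4 fell, or 22.2% of members beside 25% of all genes (13.1% higher, 11.8% lower). Scaling by total counts instead of by TMM put the median log2 fold change of all genes at 0.375 with CTNNB1 added and at 0.256 with NFE2L2 added, beside 0.0112 and -0.00705 with TMM, and the members then split into 15 higher and 4 lower, and 13 higher and 5 lower. Of all genes, that scaling put 6133 higher and 795 lower with CTNNB1 added, and 4970 higher and 1038 lower with NFE2L2 added. It put 7 members higher and 7 lower in NFE2L2_MET against WT. Beside these, 1372 of all genes were higher and 2517 lower, with a median log2 fold change of -0.134. A term for the share of unaligned reads, 91.1% of whose variance lay between groups, left 1 called member for NFE2L2_MET against WT, 4 for CTNNB1_MET, 4 for CTNNB1_NFE2L2 and 2 for CTNNB1_NFE2L2_MET, and 5 with NFE2L2 added. With NFE2L2 added it ended all calls but those of Slc1a1, Slc1a4, Slc3a2, Slc38a3 and Slc43a1. With CTNNB1 added it ended only the calls of Slc6a6, Slc6a8, Slc7a6os, Slc7a8 and Slc38a11, and with MET added only that of Slc7a7. Shares of all genes called with this term are not given here, so these counts are not read as particular to the members. The part of the unaligned share in the results cannot be told apart from the groups.

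**Figure D1:**
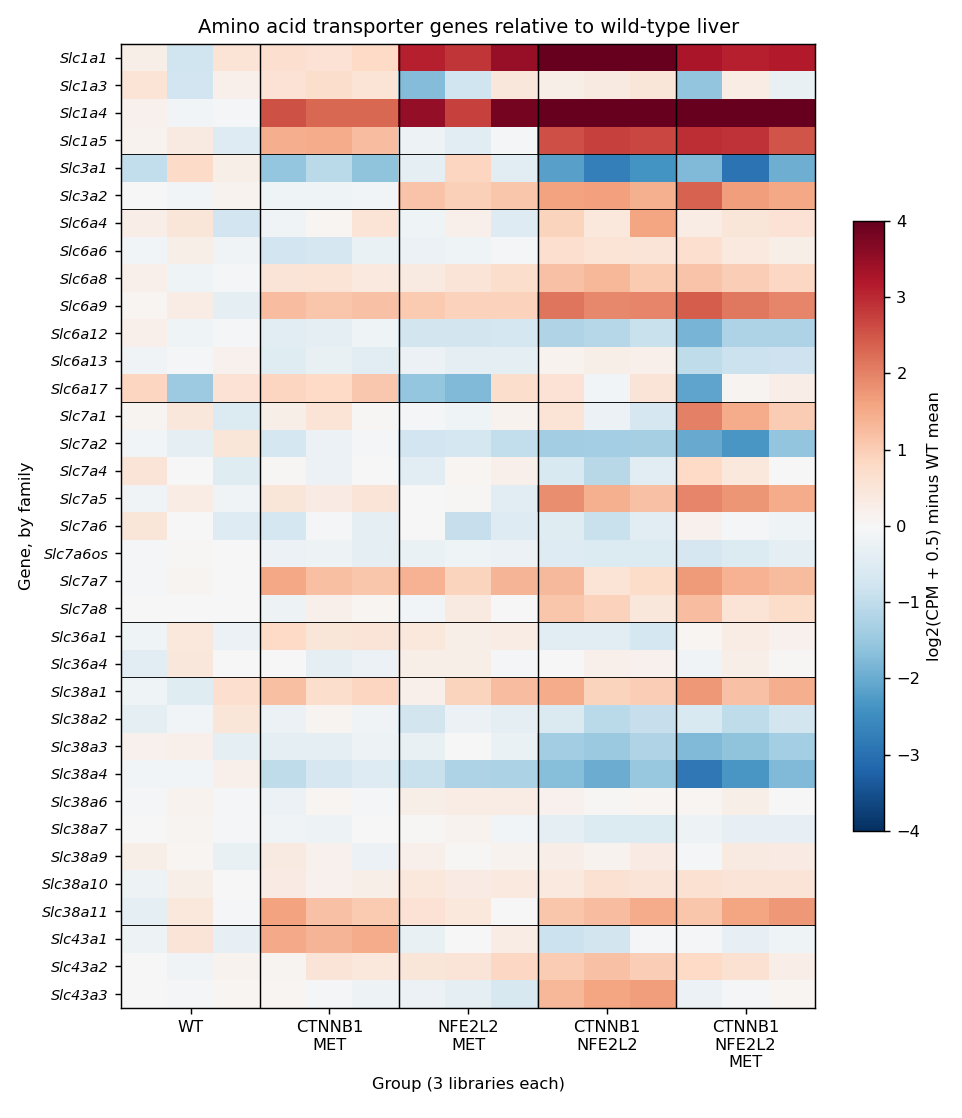
Level of each of 35 of the 36 genes (rows, by family) in each of the 15 libraries (columns, by group) as log2(CPM + 0.5) minus the WT mean, with colours limited to -4 and 4, so that the darkest cells may lie beyond. Slc1a4 stands out as higher in all 4 models and Slc1a1 in the 3 models that carry NFE2L2, and Slc38a3, Slc38a4 and Slc7a2 are lowest in the 2 models that carry both NFE2L2 and CTNNB1.

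The largest rises against WT among the members were those of Slc1a1 and Slc1a4. Slc1a4 encodes ASCT1, an exchanger of serine, alanine, cysteine and threonine. It stood at 6.40, 5.10 and 5.26 CPM in WT, 35.1, 29.3 and 29.5 in CTNNB1_MET, 68.3, 39.5 and 86.5 in NFE2L2_MET, 161, 128 and 103.2 in CTNNB1_NFE2L2 and 189, 123.1 and 154 in CTNNB1_NFE2L2_MET. All 12 model libraries lay above all 3 WT libraries, and both models with CTNNB1 and NFE2L2 together lay above both other models. The log2 fold change against WT was 2.49 ± 0.28 (SE) in CTNNB1_MET, 3.54 ± 0.29 in NFE2L2_MET, 4.55 ± 0.29 in CTNNB1_NFE2L2 and 4.80 ± 0.30 in CTNNB1_NFE2L2_MET (edgeR adjusted p = 4.95e-05, 1.45e-06, 5.26e-08 and 3.84e-08). It rose with 2 of the additions, by 1.26 ± 0.24 with CTNNB1 added and by 2.31 ± 0.25 with NFE2L2 added (adjusted p = 0.00167 and 2.14e-05), while with MET added the difference was 0.25 ± 0.24 (adjusted p = 0.482). The Slc1a4 gene spans 20302180 to 20332713 on the minus strand of chromosome 11 in GRCm38, the mm10 assembly. Its RefSeq promoter window, 250 bases before to 50 after the annotated start (GRCm38.p6, chr11:20332664-20332963, minus strand), is printed because Slc1a4 rose in all 4 models and its window holds a C/EBP-ATF response element (TGATGNAA, searched on both strands), shown in capitals at -4 from the start. It is 1 of 3 such windows among 44 of the members (6.82%), beside 3.97% of 32851 windows of all genes. The others are overlapping windows of Slc7a7.
Slc1a4 promoter: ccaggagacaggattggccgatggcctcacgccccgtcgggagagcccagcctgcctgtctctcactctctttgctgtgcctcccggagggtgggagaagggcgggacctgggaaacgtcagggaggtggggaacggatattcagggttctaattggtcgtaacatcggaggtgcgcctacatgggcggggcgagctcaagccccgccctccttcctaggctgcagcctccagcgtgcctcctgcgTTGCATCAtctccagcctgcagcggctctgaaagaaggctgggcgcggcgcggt
A match of letters is a description and says nothing of binding.

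Slc1a5 encodes ASCT2, the exchanger known for glutamine uptake in proliferating cells. Its level was 4.10, 4.86 and 2.37 CPM in WT and 3.12, 2.53 and 3.38 in NFE2L2_MET, then 10.8, 11.1 and 9.14 in CTNNB1_MET, 24.1, 27.3 and 25.7 in CTNNB1_NFE2L2 and 31.7, 30.4 and 23.1 in CTNNB1_NFE2L2_MET. Only the 3 models with CTNNB1 lay above the WT range, and NFE2L2_MET overlapped WT. With CTNNB1 added, Slc1a5 rose by 3.23 ± 0.21 on the log2 scale (adjusted p = 7.26e-08), the largest rise of any member in that comparison, and with NFE2L2 added by 1.46 ± 0.18 (adjusted p = 3.21e-05). The NFE2L2_MET value against WT was -0.32 ± 0.23 (adjusted p = 0.327). Summed levels of the 6 proliferation markers, given beside Slc1a5, were 37.8 to 43.1 CPM in WT, 42.4 to 62.3 in NFE2L2_MET, 80.4 to 97.8 in CTNNB1_MET, 171 to 201 in CTNNB1_NFE2L2 and 210 to 277 in CTNNB1_NFE2L2_MET. None of the 6 was at 0 in any group, and their part in the result was not tested.

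Slc1a1 encodes EAAC1, a carrier of glutamate, aspartate and cysteine. It was near the detection limit in WT at 0.503, 0 and 0.770 CPM and in CTNNB1_MET at 0.858, 0.779 and 0.992 CPM. The models with NFE2L2 held 6.89, 5.79 and 9.05 CPM (NFE2L2_MET), 7.73, 6.87 and 7.25 CPM (CTNNB1_NFE2L2_MET) and 40.3, 35.2 and 28.9 CPM (CTNNB1_NFE2L2). Every NFE2L2 library lay above every library without it, and CTNNB1_NFE2L2 lay above the rest. Slc1a1 rose by 3.03 ± 0.36 with NFE2L2 added and fell with MET added (log2 fold change -2.26 ± 0.27), with adjusted p = 2.6e-05 and 8.21e-05, whereas the CTNNB1 added difference was 0.00 ± 0.28 (adjusted p = 0.995). Against WT it rose by 4.12 ± 0.42 in NFE2L2_MET, 6.38 ± 0.40 in CTNNB1_NFE2L2 and 4.12 ± 0.42 in CTNNB1_NFE2L2_MET. The annotated exons of Slc1a1 share 2631 bases with another gene, 4430402I18Rik, so its count holds some uncertainty, and with a WT library at 0 the fold changes against WT depend on the prior count of the fit.

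Of the Slc3 heavy chains, Slc3a2 rose and Slc3a1 fell in CTNNB1_NFE2L2 and CTNNB1_NFE2L2_MET against WT and with CTNNB1 added. In NFE2L2_MET Slc3a2 alone was called, in CTNNB1_MET Slc3a1 alone, and with MET added neither. Slc3a2 encodes CD98hc (4F2hc), the heavy chain of the LAT exchangers. It stood at 55.1, 51.7 and 61.0 CPM in WT and 49.5, 49.2 and 51.9 in CTNNB1_MET, and at 124.5, 107.8 and 120.1 in NFE2L2_MET, 173, 176 and 149.7 in CTNNB1_NFE2L2 and 285, 178 and 165 in CTNNB1_NFE2L2_MET. All 9 libraries with NFE2L2 were above all 6 without it, and CTNNB1_MET overlapped WT. The rise with NFE2L2 added was 2.06 ± 0.17 and with CTNNB1 added 0.83 ± 0.16 (adjusted p = 4.22e-07 and 0.00114). Slc3a1 encodes rBAT, the heavy chain of the cystine and dibasic amino acid exchanger, known mainly for kidney and gut. It stood at 21.5, 73.5 and 51.8 CPM in WT, 33.1, 79.8 and 31.7 in NFE2L2_MET, 14.5, 20.3 and 13.8 in CTNNB1_MET, 9.18, 6.06 and 7.89 in CTNNB1_NFE2L2 and 12.4, 5.24 and 10.9 in CTNNB1_NFE2L2_MET. The 9 libraries with CTNNB1 lay between 5.24 and 20.3 CPM and the other 6 between 21.5 and 79.8 CPM. With CTNNB1 added it fell (log2 fold change -2.34 ± 0.50, adjusted p = 0.0041). Slc3a1 shares 601 exon bases with Prepl, and the sum of its single-strand counts was 1.79 times its unstranded count. The unstranded count used here thus leaves out reads that the strand columns assign to Slc3a1. Which of the 2 genes those reads came from cannot be told. The CTNNB1_MET value against WT, -1.60 ± 0.48 (adjusted p = 0.0408), missed the threshold when any of 9 of the 15 libraries was left out (adjusted p up to 0.133).

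**Figure D2:**
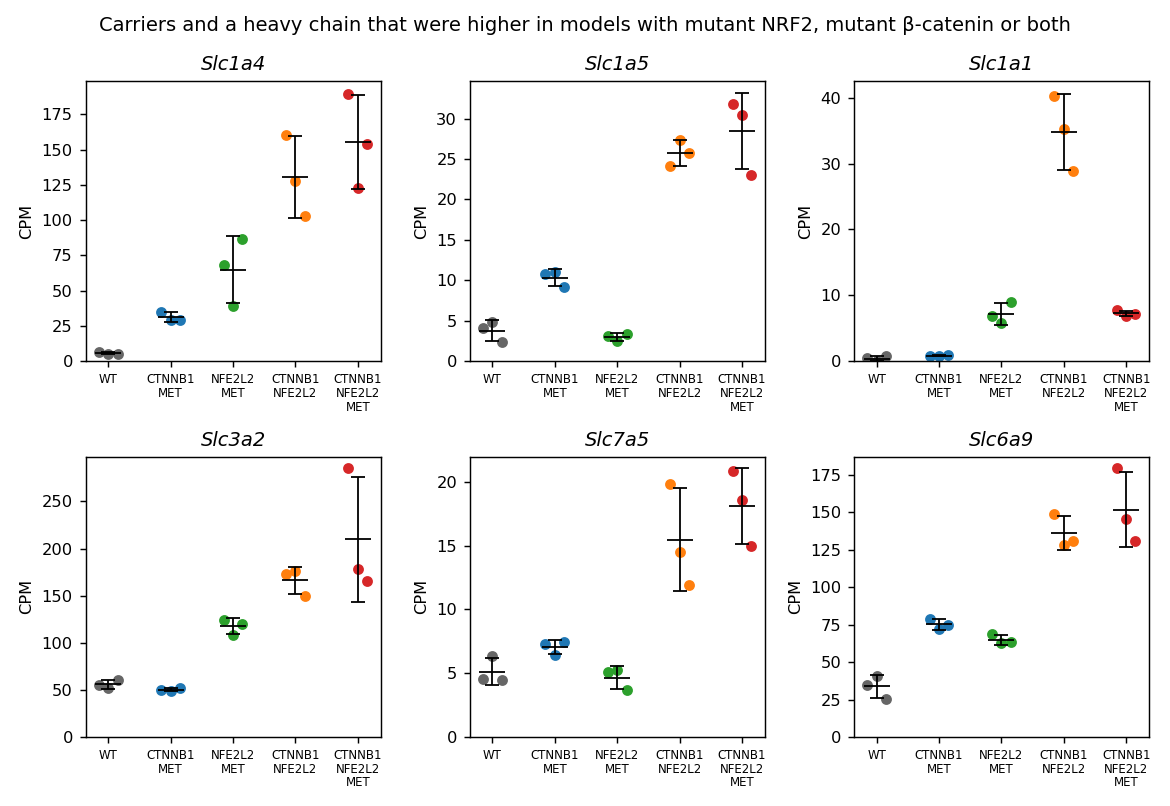
Dots show CPM in each library, with the mean ± SD of 3 libraries per group, for Slc1a4, Slc1a5, Slc1a1, Slc3a2, Slc7a5 and Slc6a9 (each axis starts at 0). Slc1a5 and Slc7a5 are highest in CTNNB1_NFE2L2 and CTNNB1_NFE2L2_MET, while Slc1a1 is highest in CTNNB1_NFE2L2 at a mean of 34.8 CPM.

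The light chain LAT1, encoded by Slc7a5, exchanges large neutral amino acids such as leucine for glutamine. Its level was 4.53, 6.35 and 4.49 CPM in WT, 5.07, 5.26 and 3.67 in NFE2L2_MET, 7.29, 6.45 and 7.41 in CTNNB1_MET, 19.9, 14.5 and 11.9 in CTNNB1_NFE2L2 and 20.8, 18.6 and 14.9 in CTNNB1_NFE2L2_MET. The 6 libraries with both CTNNB1 and NFE2L2 lay above the other 9. Slc7a5 rose by 1.96 ± 0.21 with CTNNB1 added and 1.36 ± 0.20 with NFE2L2 added (adjusted p = 6.67e-06 and 0.000133). LAT2, Slc7a8, a light chain of wider substrate range, had means of 3.19 ± 0.0240 (SD, n = 3) in WT, 6.17 ± 1.51 in CTNNB1_NFE2L2 and 6.21 ± 1.70 in CTNNB1_NFE2L2_MET, and rose against WT in both (by 0.95 ± 0.24 and 0.96 ± 0.24). Its rise with CTNNB1 added (0.85 ± 0.24, adjusted p = 0.0125) missed the threshold without CTNNB1_NFE2L2_MET replicate 1 or without NFE2L2_MET replicate 1 (adjusted p up to 0.078). The y+LAT2 light chain Slc7a6 had means between 0.64 and 1.27 CPM and passed no test. Its neighbour Slc7a6os was at 23.2 ± 0.670 CPM in WT and fell by 0.54 on the log2 scale in CTNNB1_NFE2L2_MET.

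Slc7a7 encodes y+LAT1, the light chain that exports cationic amino acids and is known for high levels in macrophages. It was the single Slc7 member to rise in all 4 models: 4.24, 4.86 and 4.49 CPM in WT, 14.04, 11.0 and 10.4 in CTNNB1_MET, 12.6, 8.92 and 12.4 in NFE2L2_MET, 11.9, 6.85 and 7.84 in CTNNB1_NFE2L2 and 15.8, 12.7 and 11.7 in CTNNB1_NFE2L2_MET. No model library fell within the WT range. The log2 fold changes against WT were 1.38 ± 0.22, 1.32 ± 0.22, 0.97 ± 0.22 and 1.56 ± 0.22 in that order of groups (adjusted p = 0.00048, 0.000544, 0.00183 and 2.72e-05). The 12 macrophage and Kupffer cell markers summed to 267 to 324 CPM in WT, 362 to 464 in CTNNB1_MET, 584 to 655 in NFE2L2_MET, 581 to 778 in CTNNB1_NFE2L2 and 611 to 904 in CTNNB1_NFE2L2_MET, none at 0 in any group. Their part in the Slc7a7 result was not tested. Slc7a7 shares 232 exon bases with Oxa1l, and the sum of its single-strand counts was 1.28 times its unstranded count.

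The cationic amino acid carriers split by group. Slc7a2 (CAT2), a hepatocyte carrier of arginine and lysine, stood at 668, 544 and 1009.9 CPM in WT, 438, 609.9 and 673 in CTNNB1_MET, 417, 441 and 358 in NFE2L2_MET, 275, 280.2 and 282 in CTNNB1_NFE2L2 and 175, 142 and 238 in CTNNB1_NFE2L2_MET. Both models with CTNNB1 and NFE2L2 lay below every other library, and it fell against WT, with log2 fold changes of -2.0 ± 0.23 in CTNNB1_NFE2L2_MET and -1.41 ± 0.23 in CTNNB1_NFE2L2 (adjusted p = 6.06e-06 and 0.000146). In NFE2L2_MET the value of -0.87 ± 0.22 (adjusted p = 0.0123) missed the threshold without WT replicate 3 or without NFE2L2_MET replicate 3 (adjusted p up to 0.0569). Slc7a1 (CAT1), the ubiquitous arginine carrier, was at 2.44, 3.20 and 1.35 CPM in WT, 2.70, 3.47 and 2.30 in CTNNB1_MET, 2.12, 1.93 and 2.52 in NFE2L2_MET, 3.48, 1.83 and 1.22 in CTNNB1_NFE2L2 and 10.4, 7.16 and 5.01 in CTNNB1_NFE2L2_MET. The 3-transgene libraries lay above the other 12, and Slc7a1 rose with each addition, by 1.77 ± 0.37 (CTNNB1), 1.42 ± 0.36 (NFE2L2) and 1.77 ± 0.36 (MET), with adjusted p = 0.0021, 0.00699 and 0.00276. Slc7a4, an orphan member of this branch, was called in MET added at 1.33 ± 0.33 (adjusted p = 0.00839), its mean being 4.19 ± 1.28 CPM in CTNNB1_NFE2L2_MET and 1.67 ± 0.518 in CTNNB1_NFE2L2. A pair of promoter windows of Slc7a1, on the minus strand of chromosome 5 (chr5:148392766-148393065 and chr5:148399855-148400154, GRCm38.p6), are printed because they hold a TCF/LEF site (ATCAAAG) and an antioxidant response element core (TGACNNNGC) respectively, both in capitals.
Slc7a1 promoter, window 1: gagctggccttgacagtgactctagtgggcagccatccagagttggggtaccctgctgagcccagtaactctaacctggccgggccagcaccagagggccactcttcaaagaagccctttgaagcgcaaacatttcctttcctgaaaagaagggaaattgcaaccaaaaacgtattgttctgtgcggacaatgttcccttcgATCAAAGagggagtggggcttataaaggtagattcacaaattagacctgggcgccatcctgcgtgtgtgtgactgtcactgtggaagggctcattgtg
Slc7a1 promoter, window 2: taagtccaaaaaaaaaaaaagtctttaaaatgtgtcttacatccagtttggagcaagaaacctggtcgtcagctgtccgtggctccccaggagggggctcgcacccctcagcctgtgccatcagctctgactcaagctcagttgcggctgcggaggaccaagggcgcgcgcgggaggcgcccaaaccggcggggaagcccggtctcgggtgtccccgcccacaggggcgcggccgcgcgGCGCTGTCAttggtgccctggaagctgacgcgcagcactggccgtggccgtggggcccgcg
Among the 44 member windows 3 hold the TCF/LEF letters (6.82%, beside 3.73% of all windows) and 9 the antioxidant response element core (20.5%, beside 12.4%). Among these 9, Slc6a9 and Slc7a6 each count more than once, and the windows of Slc7a6 overlap. Of the genes with that core, Slc7a1 and Slc6a9 rose with NFE2L2 added, Slc36a1, Slc38a2, Slc6a13 and Slc43a1 fell, and Slc7a6 was not called. The windows of Slc1a1 and Slc3a2, which rose with NFE2L2 added, held no match to any motif searched. The part of the matches in the results was not tested.

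The Slc38 family contains the most abundant members in liver, and both leading genes fell in the models that carry CTNNB1 with NFE2L2. Slc38a3 (SNAT3), the hepatocyte glutamine carrier, stood at 2312, 2378 and 1568 CPM in WT, 1564, 1549 and 1795 in CTNNB1_MET, 1666, 2012 and 1705 in NFE2L2_MET, 775, 731 and 885 in CTNNB1_NFE2L2 and 603, 674 and 790.3 in CTNNB1_NFE2L2_MET. CTNNB1_MET and NFE2L2_MET overlapped WT, and the 6 libraries with both CTNNB1 and NFE2L2 lay below the other 9. The log2 fold change was -1.60 ± 0.17 in CTNNB1_NFE2L2_MET and -1.39 ± 0.17 in CTNNB1_NFE2L2 against WT, and -1.38 ± 0.17 with CTNNB1 added and -1.25 ± 0.17 with NFE2L2 added (adjusted p = 2.18e-06, 9e-06, 2.52e-05 and 5.89e-05). Slc38a4 (SNAT4), a carrier of alanine and other neutral amino acids, stood at 1182, 1170.5 and 1453 CPM in WT, 625, 784 and 886 in CTNNB1_MET, 685, 542 and 524 in NFE2L2_MET, 391, 322 and 441 in CTNNB1_NFE2L2 and 173, 249 and 367 in CTNNB1_NFE2L2_MET. All 12 model libraries lay below WT. The log2 fold change was -2.27 ± 0.24 in CTNNB1_NFE2L2_MET (adjusted p = 1.92e-06), -1.72 ± 0.23 in CTNNB1_NFE2L2 (adjusted p = 2.58e-05) and -1.12 ± 0.23 in NFE2L2_MET (adjusted p = 0.00274), while in CTNNB1_MET it was -0.73 ± 0.23 (adjusted p = 0.0378), and missed the threshold when any 1 of 5 libraries was left out, namely WT replicates 1, 2 and 3 and CTNNB1_MET replicates 1 and 2 (adjusted p up to 0.158). The 10 periportal hepatocyte markers summed to 8444 to 15074 CPM in WT, 5283 to 8593 in CTNNB1_MET, 8077 to 10023 in NFE2L2_MET, 1158 to 2826 in CTNNB1_NFE2L2 and 1660 to 2784 in CTNNB1_NFE2L2_MET, and so were lower than WT in the 2 models in which Slc38a3 fell. None was at 0 in any group, and their part in the results was not tested.

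Slc38a2 (SNAT2), the carrier of system A known to be induced when amino acids run short, stood at 139.8, 167 and 252 CPM in WT, 154, 193 and 164 in CTNNB1_MET, 109.3, 154 and 138 in NFE2L2_MET, 121.9, 84.8 and 95.9 in CTNNB1_NFE2L2 and 118.9, 88.0 and 108.2 in CTNNB1_NFE2L2_MET. It fell against WT, with log2 fold changes of -0.83 ± 0.21 and -0.88 ± 0.21 in the CTNNB1_NFE2L2_MET and CTNNB1_NFE2L2 models (adjusted p = 0.00411 and 0.00276). Its value with NFE2L2 added, -0.70 ± 0.21 (adjusted p = 0.0173), missed the threshold without CTNNB1_NFE2L2_MET replicate 2 or CTNNB1_MET replicate 2 (adjusted p up to 0.0735). Slc38a1 (SNAT1) stood at 0.935, 0.653 and 2.05 CPM in WT and at 4.92, 3.12 and 3.89 in CTNNB1_NFE2L2_MET, a rise of 1.71 ± 0.39 (adjusted p = 0.00205). In CTNNB1_NFE2L2 it was at 4.06, 2.51 and 2.72 CPM (1.35 ± 0.40 against WT, adjusted p = 0.0109), and missed the threshold without WT replicate 2 or CTNNB1_NFE2L2 replicate 1 (adjusted p up to 0.0513). CTNNB1_MET and NFE2L2_MET held 3.19, 2.13 and 2.40 and 1.36, 2.53 and 3.32 CPM of Slc38a1 and passed no test. Slc38a11, of uncertain substrates, had means of 0.246 ± 0.207 CPM in WT and 1.55 ± 0.426 in CTNNB1_NFE2L2_MET and rose with CTNNB1 added by 1.85 ± 0.46 (adjusted p = 0.00678). Slc38a10 rose against WT by 0.54 ± 0.11 in CTNNB1_NFE2L2_MET, a value that became -0.15 with the unaligned-read term. Slc38a7, a lysosomal glutamine carrier, fell in CTNNB1_NFE2L2 from 32.0 ± 2.28 to 22.4 ± 1.48 CPM (-0.52 ± 0.10, adjusted p = 0.000429), while Slc38a6 (group means 8.55 to 10.9 CPM) and the lysosomal arginine sensor Slc38a9 (9.84 to 11.6 CPM) passed no test in any comparison.

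**Figure D3:**
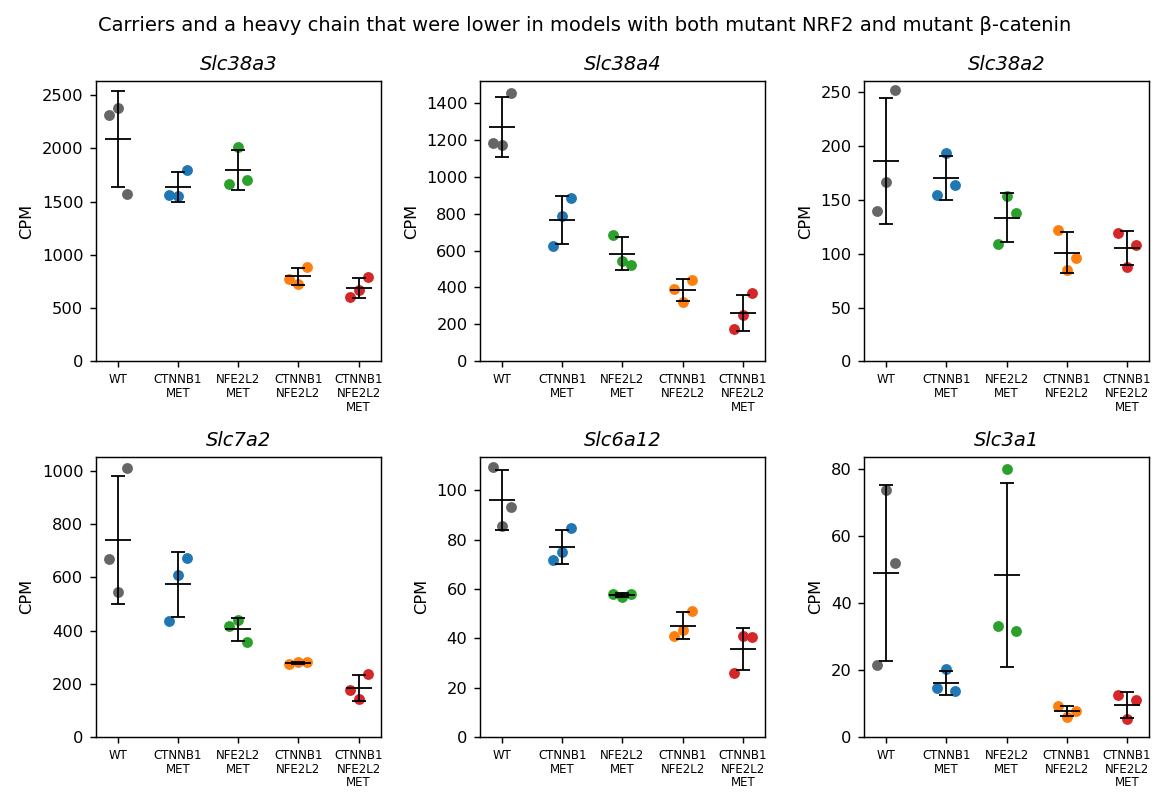
Dots show CPM in each library, with the mean ± SD of 3 libraries per group, for Slc38a3, Slc38a4, Slc38a2, Slc7a2, Slc6a12 and Slc3a1 (each axis starts at 0). The lowest means of all but Slc38a2 and Slc3a1 are in CTNNB1_NFE2L2_MET, and the mean of Slc3a1 is 48.2 CPM in NFE2L2_MET and 48.9 CPM in WT.

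In the Slc6 family, Slc6a9 (GlyT1), a glycine carrier, rose in every model. It stood at 34.9, 41.0 and 25.2 CPM in WT, 78.6, 71.7 and 74.9 in CTNNB1_MET, 68.5, 62.5 and 63.2 in NFE2L2_MET, 149, 128 and 131 in CTNNB1_NFE2L2 and 179, 145 and 131 in CTNNB1_NFE2L2_MET. WT lay below all 12 model libraries, and CTNNB1_MET and NFE2L2_MET lay between WT and the rest. With CTNNB1 added it rose by 1.23 ± 0.15 and with NFE2L2 added by 1.01 ± 0.15 (adjusted p = 2.26e-05 and 0.000111). Slc6a9 shares 1475 exon bases with Ccdc24 and B4galt2. Slc6a8 (the creatine carrier CRT) was at 8.63, 6.58 and 7.12 CPM in WT, 10.9, 11.1 and 9.87 in CTNNB1_MET, 9.61, 10.8 and 12.4 in NFE2L2_MET, 17.4, 19.2 and 15.7 in CTNNB1_NFE2L2 and 16.8, 15.1 and 13.7 in CTNNB1_NFE2L2_MET. No model library lay within the WT range, and the gene rose against WT by 1.23 ± 0.14 in CTNNB1_NFE2L2 and 1.03 ± 0.14 in CTNNB1_NFE2L2_MET (adjusted p = 4.58e-06 and 2.3e-05). Its values in CTNNB1_MET (0.51 ± 0.14, adjusted p = 0.0221) and NFE2L2_MET (0.56 ± 0.14, adjusted p = 0.011) and with CTNNB1 added (0.47 ± 0.14, adjusted p = 0.0151) missed the threshold without single libraries, for NFE2L2_MET without its replicate 3 (adjusted p = 0.0597), for CTNNB1 added without CTNNB1_NFE2L2_MET replicate 1 or NFE2L2_MET replicate 1 (up to 0.0752), and for CTNNB1_MET without WT replicate 2 or 3 or CTNNB1_MET replicate 1 or 2 (up to 0.0897).

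Slc6a6 (TauT), the taurine carrier, stood at 105.6, 135 and 103.1 CPM in WT, 66.6, 71.7 and 95.5 in CTNNB1_MET, 97.2, 100.4 and 108.0 in NFE2L2_MET, 180.4, 166 and 162 in CTNNB1_NFE2L2 and 183, 148 and 133 in CTNNB1_NFE2L2_MET. It rose with CTNNB1 added by 0.60 ± 0.15 and with NFE2L2 added by 0.99 ± 0.15 (adjusted p = 0.00582 and 0.000137). The reference for NFE2L2 added, CTNNB1_MET, itself lay below WT (-0.56 ± 0.15, adjusted p = 0.0173). That call was lost without WT replicate 2 or CTNNB1_MET replicate 1 or 2 (adjusted p up to 0.0928). The rise in CTNNB1_NFE2L2 against WT (0.56 ± 0.15, adjusted p = 0.00523) held without each single library, but turned to -0.35 with the unaligned-read term. Against WT, CTNNB1_NFE2L2_MET was called at 0.43 ± 0.15 (adjusted p = 0.0223) though its libraries overlapped WT, and the value missed the threshold without WT replicate 1 or 3 or CTNNB1_NFE2L2_MET replicate 1 (adjusted p up to 0.12) and turned to -0.51 with the unaligned-read term. The betaine and GABA carrier Slc6a12 (BGT1) was at 109.4, 85.6 and 93.2 CPM in WT, 71.6, 74.8 and 84.5 in CTNNB1_MET, 57.8, 56.7 and 57.9 in NFE2L2_MET, 41.0, 43.2 and 51.2 in CTNNB1_NFE2L2 and 26.0, 40.8 and 40.3 in CTNNB1_NFE2L2_MET. It fell against WT in every model but CTNNB1_MET, with a log2 fold change of -1.43 ± 0.15 in CTNNB1_NFE2L2_MET (adjusted p = 2.13e-06). Its chromosome 6 neighbour Slc6a13 (GAT2), a hepatocyte GABA and taurine carrier, behaved differently: 315, 338 and 391 CPM in WT, 249, 281 and 257 in CTNNB1_MET, 298, 272 and 264 in NFE2L2_MET, 380.3, 408 and 402 in CTNNB1_NFE2L2 and 172, 190.4 and 196 in CTNNB1_NFE2L2_MET. The CTNNB1_NFE2L2 libraries overlapped WT and the 3-transgene libraries lay below all others, with a log2 fold change of -1.09 ± 0.11 with MET added (adjusted p = 9.36e-06). Slc6a4, the serotonin carrier, had means of 0.375 to 1.46 CPM and passed no test.

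The Slc43 carriers each had their own pattern. Slc43a1 (LAT3), a facilitated carrier of branched-chain amino acids, stood at 7.48, 12.5 and 6.73 CPM in WT, 25.7, 22.8 and 25.1 in CTNNB1_MET, 6.95, 8.78 and 10.7 in NFE2L2_MET, 4.49, 4.96 and 8.23 in CTNNB1_NFE2L2 and 8.24, 6.78 and 7.64 in CTNNB1_NFE2L2_MET. The 3 CTNNB1_MET libraries lay above the other 12, with a log2 fold change of 1.46 ± 0.24 against WT (adjusted p = 0.000753). With NFE2L2 added, a comparison that uses the same CTNNB1_MET libraries as its reference, the gene fell (log2 fold change -1.70 ± 0.24, adjusted p = 9.49e-05). Its neighbour on chromosome 2, Slc43a3, the purine base carrier ENBT1, stood at 25.0, 23.4 and 26.3 CPM in WT, 26.5, 24.2 and 21.7 in CTNNB1_MET, 21.2, 19.0 and 15.8 in NFE2L2_MET, 63.0, 74.9 and 80.7 in CTNNB1_NFE2L2 and 21.2, 23.8 and 26.4 in CTNNB1_NFE2L2_MET. Here CTNNB1_NFE2L2 was alone in being high, with a log2 fold change of 1.55 ± 0.13 against WT (adjusted p = 1.68e-07). With MET added the gene fell (log2 fold change -1.61 ± 0.13, adjusted p = 1.77e-06). Slc43a2 (LAT4) was highest in CTNNB1_NFE2L2 at 20.5 ± 1.40 CPM against 9.56 ± 0.928 in WT (1.10 ± 0.15, adjusted p = 3.62e-05). For Slc43a1 the window on the plus strand of chromosome 2 (chr2:84840073-84840372, GRCm38.p6) is printed because it holds both an E-box (CACGTG) and an antioxidant response element core, in capitals, and the gene was highest in 1 model.
Slc43a1 promoter: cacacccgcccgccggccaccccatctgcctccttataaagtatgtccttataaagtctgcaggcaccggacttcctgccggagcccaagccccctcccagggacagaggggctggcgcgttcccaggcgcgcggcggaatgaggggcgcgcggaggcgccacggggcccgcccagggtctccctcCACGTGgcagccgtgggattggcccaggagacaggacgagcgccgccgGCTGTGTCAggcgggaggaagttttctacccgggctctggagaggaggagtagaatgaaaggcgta
The E-box letters occur in 3 of 44 member windows (6.82%) and in 7.15% of all windows. The 4 windows printed here and above were picked after the matches were seen, and 26 of 36 members had a window.

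Of the Slc36 proton-coupled carriers, Slc36a1 (PAT1, at lysosomes) stood at 34.7, 53.0 and 33.5 CPM in WT, 68.4, 55.4 and 56.1 in CTNNB1_MET, 53.0, 46.4 and 48.9 in NFE2L2_MET, 29.1, 29.5 and 24.2 in CTNNB1_NFE2L2 and 41.4, 48.6 and 44.9 in CTNNB1_NFE2L2_MET. With MET added it rose by 0.70 ± 0.15 (adjusted p = 0.00409). Its fall in CTNNB1_NFE2L2 against WT (-0.55 ± 0.15, adjusted p = 0.0084) missed the threshold without WT replicate 2 (adjusted p = 0.0731). Slc36a4 had group means of 2.25 to 2.95 CPM and passed no test.

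**Figure D4:**
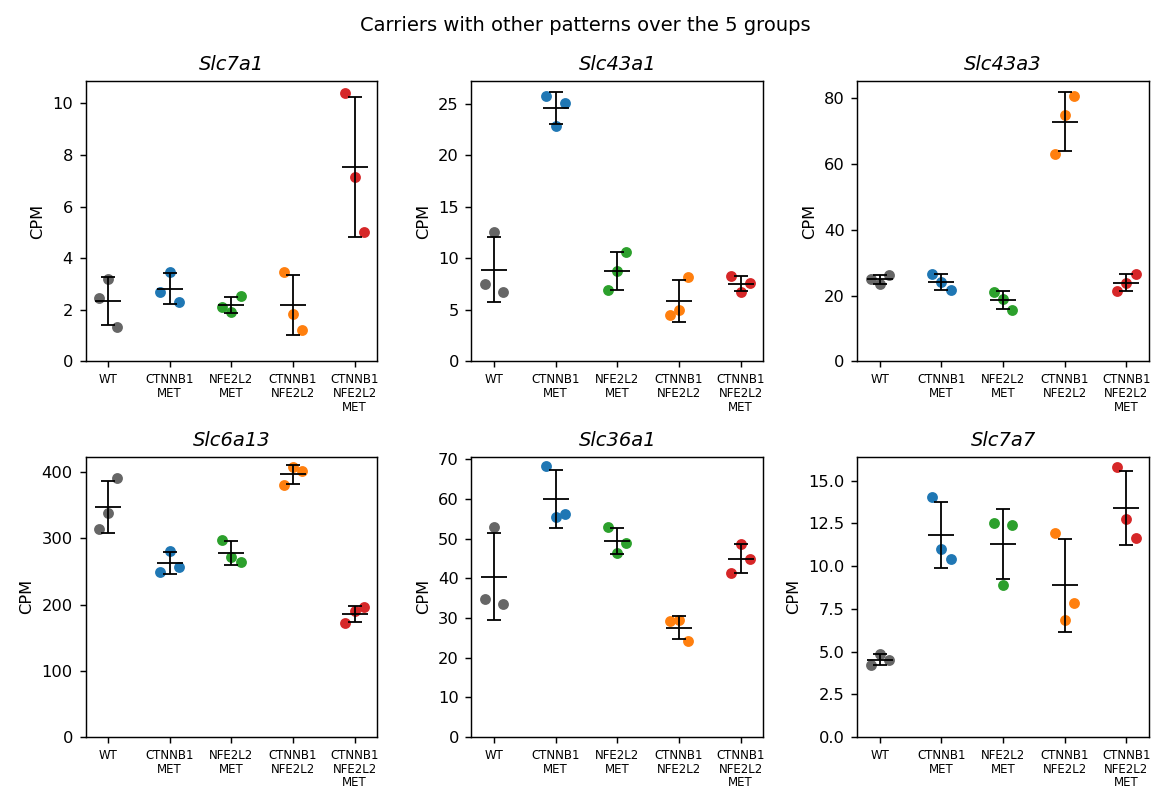
Dots show CPM in each library, with the mean ± SD of 3 libraries per group, for Slc7a1, Slc43a1, Slc43a3, Slc6a13, Slc36a1 and Slc7a7 (each axis starts at 0). Slc7a1 is highest in CTNNB1_NFE2L2_MET, Slc43a1 in CTNNB1_MET and Slc43a3 in CTNNB1_NFE2L2, at means of 7.52, 24.6 and 72.9 CPM.

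Per kilobase of annotated exon, the order of levels in WT was led by Slc38a3 at 395 CPM per kb, Slc38a4 at 298, Slc6a13 at 120 and Slc7a2 at 81.0. In CTNNB1_NFE2L2_MET the same scale gave Slc38a3 131, Slc6a13 64.1, Slc38a4 61.8 and Slc3a2 59.4 CPM per kb, so the gap between the leading hepatocyte carriers and Slc3a2 or Slc1a4 (39.6) narrowed.

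The 3 additions share the 3-transgene libraries, so their members are listed side by side with no measure of overlap. With CTNNB1 added, Slc1a4, Slc1a5, Slc3a2, Slc6a6, Slc6a8, Slc6a9, Slc7a1, Slc7a5, Slc7a8 and Slc38a11 rose, and Slc3a1, Slc6a12, Slc6a13, Slc7a2, Slc7a6os, Slc38a3, Slc38a4 and Slc38a7 fell. With NFE2L2 added, Slc1a1, Slc1a4, Slc1a5, Slc3a2, Slc6a6, Slc6a8, Slc6a9, Slc7a1, Slc7a5, Slc7a8 and Slc38a10 rose, and Slc6a12, Slc6a13, Slc7a2, Slc7a6os, Slc36a1, Slc38a2, Slc38a3, Slc38a4 and Slc43a1 fell. With MET added, Slc7a1, Slc7a4, Slc7a7 and Slc36a1 rose and Slc1a1, Slc6a13, Slc43a2 and Slc43a3 fell. Several of these calls were less firm. With CTNNB1 added, Slc38a7 (-0.32 ± 0.10, adjusted p = 0.0192) and Slc7a6os (-0.29 ± 0.10, adjusted p = 0.029) missed the threshold when any 1 of 4 and of 5 libraries was left out, and turned to 0.05004 and 0.0710 under total-count scaling. That scaling also ended the calls of Slc6a12 (-0.32, edgeR adjusted p = 0.0884) and Slc6a13 (-0.21, adjusted p = 0.113) with CTNNB1 added. With NFE2L2 added it ended those of Slc6a13 (-0.23, adjusted p = 0.101), Slc38a2 (-0.43, adjusted p = 0.0752), Slc36a1 and Slc7a6os. With NFE2L2 added, Slc36a1 (-0.42 ± 0.15, adjusted p = 0.0461), Slc7a6os (-0.27 ± 0.10, adjusted p = 0.0432) and Slc38a10 (0.31 ± 0.11, adjusted p = 0.0406) missed it when any 1 of 11, 10 and 8 libraries was left out (adjusted p up to 0.194). With MET added, Slc7a7 (0.59 ± 0.20, adjusted p = 0.0429) had overlapping groups and missed it without CTNNB1_NFE2L2_MET replicate 1 or 2, CTNNB1_MET replicate 2 or CTNNB1_NFE2L2 replicate 2 or 3 (adjusted p up to 0.179). The fall of Slc43a2 (-0.50 ± 0.15, adjusted p = 0.0233) was lost without CTNNB1_NFE2L2_MET replicate 2 or 3 or CTNNB1_NFE2L2 replicate 2 (adjusted p up to 0.0984).

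**Figure D5:**
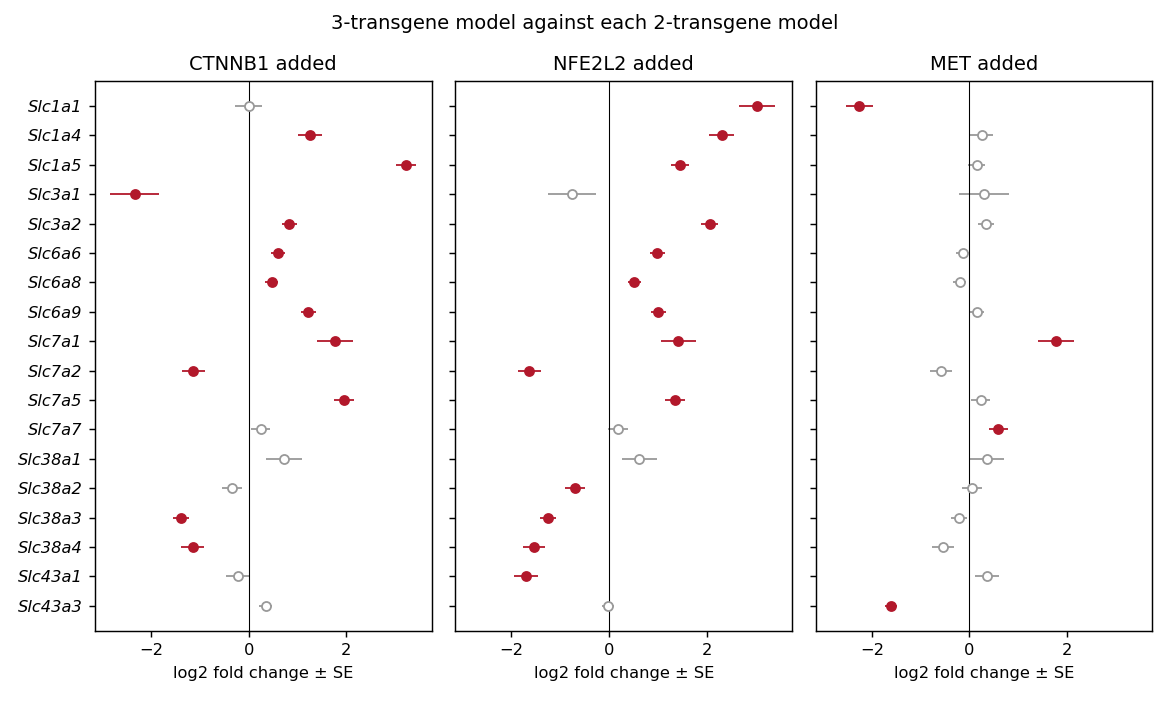
Log2 fold change ± SE of the 18 named genes with CTNNB1, NFE2L2 or MET added (3-transgene model against each 2-transgene model, 3 libraries each). Filled red points passed the adjusted threshold and open grey ones did not. Slc1a1 moved by 3.03 with NFE2L2 added and by -2.26 with MET added.

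Genes of 3 related lists were counted in the same way. Of 28 genes of the amino acid response, most of them known ATF4 targets, 15 rose and 3 fell in CTNNB1_NFE2L2_MET against WT (64.3% called, beside 49.9% of all genes), and 11 rose and 5 fell in CTNNB1_NFE2L2 (57.1% beside 48.7%). The shares in CTNNB1_MET, where 5 rose and 0 fell (17.9% beside 17.2%), and in NFE2L2_MET, where 5 rose and 1 fell (21.4% beside 23.4%), were near those of all genes. With CTNNB1 added 12 rose and 1 fell (46.4% beside 30.7%), with NFE2L2 added 12 rose and 2 fell (50% beside 33.8%), and with MET added 11 rose and 2 fell (46.4% beside 25%). The median log2 fold change of the list in these 7 comparisons lay between 0.205 and 0.636. The glycyl-tRNA synthetase Gars went from a mean of 53.7 CPM in WT to 169 in CTNNB1_NFE2L2_MET, the lipoprotein receptor Vldlr from 10.2 to 33.7, and Psat1, of serine synthesis, from 5.17 to 78.5 (adjusted p = 2.42e-08, 1.68e-05 and 8.11e-07). Psat1 also rose by 3.07 with MET added (adjusted p = 3.19e-05). The asparagine synthetase Asns and Atf4 itself lie outside the naming rule and were picked after their values were seen. Asns rose by 3.91 with MET added (adjusted p = 4.68e-05), and Atf4 stood at 107 CPM in WT and 108 in CTNNB1_NFE2L2_MET (adjusted p = 0.973).

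Of 28 tested genes of amino acid sensing by mTORC1, 5 rose and 10 fell in CTNNB1_NFE2L2_MET and 6 rose and 8 fell in CTNNB1_NFE2L2, shares of 53.6% and 50% that were close to the 49.9% and 48.7% of all genes. In CTNNB1_MET 1 rose and 1 fell (7.14% beside 17.2%), and in NFE2L2_MET 1 rose and 4 fell (17.9% beside 23.4%). With CTNNB1 added 2 rose and 3 fell (17.9% beside 30.7%), with NFE2L2 added 2 rose and 0 fell (7.14% beside 33.8%), and with MET added 1 rose and 6 fell (25%, the same as all genes). In CTNNB1_NFE2L2_MET against WT, Rragd, a Rag GTPase, rose by 2.60 on the log2 scale (adjusted p = 0.000165) and Flcn, folliculin, fell from 66.7 to 35.3 CPM (adjusted p = 6e-04). Lamtor1, of the lysosomal Ragulator complex, rose by 0.40 in CTNNB1_NFE2L2 (adjusted p = 0.000481).

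Of 13 tested carriers of other families, 0 rose and 8 fell in CTNNB1_NFE2L2_MET (61.5% beside 49.9% of all genes), 2 rose and 7 fell in CTNNB1_NFE2L2 (69.2% beside 48.7%) and 0 rose and 4 fell in NFE2L2_MET (30.8% beside 23.4%). In CTNNB1_MET 0 were called (background 17.2%), and 4 had an unadjusted p under 0.05 in edgeR. With CTNNB1 added 1 rose and 4 fell (38.5% beside 30.7%), with NFE2L2 added 0 rose and 9 fell (69.2% beside 33.8%), and with MET added 0 rose and 5 fell (38.5% beside 25%). In CTNNB1_NFE2L2_MET the ornithine carrier Slc25a15 fell from 324 to 128 CPM (adjusted p = 6.96e-06), the lysosomal carrier Pqlc2 from 20.3 to 16.2 CPM (adjusted p = 0.015), and the aromatic amino acid carrier Slc16a10 stood at 127 CPM in WT and 123 CPM in CTNNB1_NFE2L2_MET (adjusted p = 0.866) but 263 CPM in CTNNB1_NFE2L2 (adjusted p = 0.00142). These lists were chosen with earlier results of these data known.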

How the data were processed

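RNA-seq of mouse liver gave 15 libraries in 5 groups of 3. Trimmomatic, STAR and the mm10 build are the tools and genome named in the submitters' processing notes, with no versions, and the gene annotation release is not given in the sources used here. STAR produced the gene counts, as the layout of the deposited files shows. The deposited values are raw read counts per gene, and the unstranded column was used because each strand column held about the same number of reads, so genes that overlap on opposite strands cannot be told apart. Rows that name no gene were left out of library sizes and made up 24.5 to 42.4% of all reads.

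Counts were fitted with edgeR 4.0.16 (R 4.3.3): filterByExpr by group, TMM scaling, a robust quasi-likelihood fit over all 15 libraries, and Benjamini-Hochberg adjustment over 14098 genes with a threshold of 0.05. The 7 contrasts were the 4 models against WT and the 3-transgene model against each 2-transgene model, plus a 5-group test. CPM are TMM-scaled. On data simulated for CTNNB1 added with 13873 genes, edgeR found 74 of the 100 simulated 2-fold changes and 86 of the 99 simulated 4-fold ones. It also called 11 of 13674 unchanged genes. Far fewer genes were changed there than were called in the data, so these shares do not carry over to the reported tests. Genes described in full were members called in at least 1 contrast with a log2 fold change of at least 1.5 in size and a mean of at least 2 CPM, plus Slc3a2, Slc7a5, Slc7a2, Slc38a2, Slc38a3, Slc38a4, Slc1a5, Slc1a4, Slc6a6, Slc6a8 and Slc43a1. Other members are given by group means or ranges, except that Slc6a12, Slc6a13 and Slc36a1 are given by library, chosen after their values were seen. In each related list the 3 genes with the smallest p in the 5-group test are named. Gene coordinates are from GENCODE on GRCm38 and promoter windows from RefSeq on GRCm38.p6. The members, lists and comparisons were chosen with earlier results of these data known. DESeq2 1.42.0, other scalings and filters, single-strand counts, 2-group fits and fits without each library were tried as alternatives, and terms for unaligned reads and for brain transcripts were added after the data were seen. For 1 member, counted in the totals, values are not reported here.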

Additional observations from a re-analysis of the deposited data

How the results depend on the processing

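Of 120 called results of single members, 120 kept their call and direction with RLE size factors, 120 with DESeq2, 115 with no low-count filter, 110 with single-strand counts and 108 with total-count scaling. Fits on 2 groups alone lost 15, a term for the 3 libraries whose files are marked ADDED lost 3, and leaving those libraries out lost 12. The marked libraries were replicate 3 of WT, of CTNNB1_NFE2L2_MET and of CTNNB1_MET. Leaving out 1 library lost 3 to 10, and 31 kept their call under every alternative run. 2 alternatives added after the data were seen, a term for brain transcripts and a term for unaligned reads, kept 112 and 36.

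The unaligned-read term, 91.1% of whose variance lay between groups, left 1 called member for NFE2L2_MET against WT, 4 for CTNNB1_MET, 4 for CTNNB1_NFE2L2 and 2 for CTNNB1_NFE2L2_MET, 5 with NFE2L2 added and 18 of 36 in the 5-group test. With NFE2L2 added this term ended all calls but those of Slc1a1, Slc1a4, Slc3a2, Slc38a3 and Slc43a1. With CTNNB1 added it ended only the calls of Slc6a6, Slc6a8, Slc7a6os, Slc7a8 and Slc38a11, and with MET added only that of Slc7a7. It turned Slc38a10 to -0.15, -0.18 and -0.14 in CTNNB1_NFE2L2_MET, CTNNB1_NFE2L2 and NFE2L2_MET against WT and to -0.0693 with NFE2L2 added, and Slc6a6 to -0.51 in CTNNB1_NFE2L2_MET and -0.35 in CTNNB1_NFE2L2 against WT. The cause was not tested. Total-count scaling turned Slc38a7 and Slc7a6os to 0.05004 and 0.0710 with CTNNB1 added. A fit on 2 groups alone called 7 members in CTNNB1_MET against WT. Leaving out 1 library gave 23 to 24 called members in CTNNB1_NFE2L2_MET, 6 to 12 in CTNNB1_MET, 23 to 28 in CTNNB1_NFE2L2 and 7 to 14 in NFE2L2_MET against WT, 15 to 19, 16 to 20 and 6 to 10 with CTNNB1, NFE2L2 and MET added, and 27 to 29 in the 5-group test. For the unaligned-read term, the 2-group fit and the fits without 1 library, shares of all genes called are not given here. Members under 1 CPM rest on few counts. No paired analysis was possible because the replicate numbers follow the order of the samples and link none across groups.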
